A study of Mus musculus with 6 samples.

Results

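High-copy repeat windows are 1 kb stretches of the mouse assembly mm9 that collected many more tags than their size accounts for, in chromatin that had not passed any antibody step. They were chosen by the input libraries: chromosomes 1 to 19 were tiled into 2472353 windows of 1 kb, tags were counted by their 5′ end, and a window was kept when it held at least 10 times the mean of a non-empty window in each of 3 input libraries. This left 236 windows, which lay in 86 loci on 18 chromosomes when windows within 2000 bp of each other were joined. The height of these windows in input was selected on and is given as a description, with no test. The same holds for ChIP over input, since the windows were also separated by whether ChIP lay above or below input.

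The libraries came from E14 TG2A, an established mouse embryonic stem cell line, and were made to see where Smad2, phosphorylated at its C-terminal serines (pSmad2), binds at different levels of Nodal/Activin signalling. All cultures, the control included, were first kept for 6 h in 10 µM SB-431542 (SB), which blocks the receptor kinases that phosphorylate Smad2, in medium with a serum replacement (KSR). They were then kept for 18 h in 25 ng/ml Activin, in the solvent DMSO at 1 in 5000, which leaves the cells' own signalling, or in 10 µM SB. Both a ChIP and an input library were made once per treatment, so there was no replicate check, and every test on tags compares libraries and not treatments. The libraries held between 9565283 and 12867785 tags on these chromosomes, and a non-empty window held a mean of 5.30, 5.79 and 4.96 tags in the Activin, DMSO and SB inputs. Tags beyond the first at a position and strand made up 19.9% to 24.7% of a ChIP library, against 5.67% to 6.98% of an input library.

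Some DNA is present in a mammalian genome in very many copies. Ribosomal DNA is a tandem array of transcription units for the large ribosomal RNA precursor and is the template of RNA polymerase I in the nucleolus. Major and minor satellites are short units repeated head to tail at the centromeres and around them, where they are packed into heterochromatin. An assembly such as mm9 holds only a few copies of such units, so the tags of all copies in the cell are stacked, or collapsed, on the few that are present. Smad proteins bind DNA at the short element CAGA, or its extended form CAGAC, usually together with partner factors. By the study's account full-length Smad2 is kept from binding DNA directly, whereas Smad3 and a splice variant of Smad2 can do so.

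The windows fell into 7 sequence classes, which were formed after the values had been seen. There were 8 ribosomal DNA-like windows, of which at least 50% matched the ribosomal stretch in chr17:39979001-39986000 or which lay in it, and 34 satellite-like windows, likewise for the satellite stretch in chr2:98502001-98508000. A further 17 windows on 7 chromosomes matched one another and, over 6.6% to 48.2% of their length, the satellite stretch, and are called satellite-related. Tandem copies of a 21 bp unit filled 24 windows on chromosomes 4, 16 and 17. A single long stretch of chromosome 11 held 71 windows, 10 scattered windows outside these classes had ChIP over 2 times input in every treatment, and 72 windows remained. The names of the ribosomal DNA-like and satellite-like classes are those given to these stretches in choosing the windows, and were not checked against a ribosomal DNA sequence or a repeat annotation. None of the 236 windows (0 windows) matched the mitochondrial genome at this coverage.

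The sequences below show what these classes look like on the plus strand of mm9. The first is the 300 bp of the ribosomal DNA-like stretch printed because it lies where its ChIP tags were densest, 26466, 34354 and 45888 of them in Activin, DMSO and SB. Capitals would mark CAGA or its complement TCTG, and it holds 0 of either, 38 CpG and 70.7% GC.
ribosomal DNA-like, chr17:39982176-39982475: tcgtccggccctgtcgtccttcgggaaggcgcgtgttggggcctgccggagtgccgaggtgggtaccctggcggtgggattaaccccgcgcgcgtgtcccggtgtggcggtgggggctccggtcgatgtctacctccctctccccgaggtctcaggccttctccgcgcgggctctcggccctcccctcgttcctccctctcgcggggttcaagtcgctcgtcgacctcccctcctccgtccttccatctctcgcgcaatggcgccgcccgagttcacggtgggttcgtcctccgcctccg
The next pair is a unit of the satellite-like windows from 2 chromosomes, 234 bp long in both, shown because this class holds the windows deepest in input. The pair was picked for the highest ungapped identity between the 2 chromosomes and not for its depth. Capitals mark the 8 bases at which the 2 copies differ. Their identity of 96.6% is therefore the highest found and not that of a typical pair. The chromosome 2 copy held 16518, 13287 and 14254 ChIP tags and 17900, 19306 and 17890 input tags in Activin, DMSO and SB, and the chromosome 9 copy 115, 103 and 112 ChIP tags and 167, 164 and 125 input tags.
satellite-like, chr2:98502392-98502625: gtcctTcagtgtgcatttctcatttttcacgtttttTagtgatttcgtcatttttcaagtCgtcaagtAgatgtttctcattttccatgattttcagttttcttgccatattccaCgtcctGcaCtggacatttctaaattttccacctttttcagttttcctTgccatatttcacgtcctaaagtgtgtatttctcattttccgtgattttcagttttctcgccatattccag
satellite-like, chr9:3001290-3001523: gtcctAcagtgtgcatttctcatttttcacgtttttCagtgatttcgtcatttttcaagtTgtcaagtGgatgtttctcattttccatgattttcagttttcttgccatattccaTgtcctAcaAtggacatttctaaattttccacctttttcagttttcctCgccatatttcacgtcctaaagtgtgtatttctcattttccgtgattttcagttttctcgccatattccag
The third kind is 3 units of the 21 bp repeat, shown for the class with the lowest ChIP over input, with CAGA in capitals. Units 1 and 2 share 17 of 21 bases.
21 bp repeat, chr4:3010528-3010590: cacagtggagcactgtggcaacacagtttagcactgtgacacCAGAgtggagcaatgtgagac
The last comes from a scattered window with ChIP far above input, in an intron of Filip1l, and is shown because these 100 bp held 8085 of the 14081 ChIP tags of the window, or 57.4%. Capitals mark TCTG.
Filip1l intron, chr16:57391694-57391793: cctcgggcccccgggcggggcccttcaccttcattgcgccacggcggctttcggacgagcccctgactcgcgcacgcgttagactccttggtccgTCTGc

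Across the 236 windows ChIP lay above input in all 3 treatments in 25 windows and below input in all 3 in 159, and 52 windows were mixed. Of the 87320 windows of the genome with at least 10 tags in each input, 10.3% lay above and 38.3% below in all 3. Here and in what follows, ChIP over input is the share of the ChIP library in a window over the share of the input library of the same treatment, and its 95% interval (Clopper-Pearson) covers counting error only, since amplified tags are not independent molecules. That interval was above 1 in all 3 treatments in 19 windows and below 1 in all 3 in 82. No share of the genome is given beside these counts, and deeper windows have narrower intervals, so they are a description only. The windows held 4.14%, 4.88% and 7.46% of the ChIP tags in Activin, DMSO and SB, and 2.26%, 2.27% and 2.55% of the input tags. Summed over all windows, ChIP over input came to 1.83 for Activin, 2.14 for DMSO and 2.92 for SB. Without the 8 ribosomal DNA-like windows, an alternative chosen after seeing the data, the sums were 0.877, 0.837 and 0.972. The sum thus lay above 1 in each treatment with those 8 windows and below 1 without them.

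**Figure D1:**
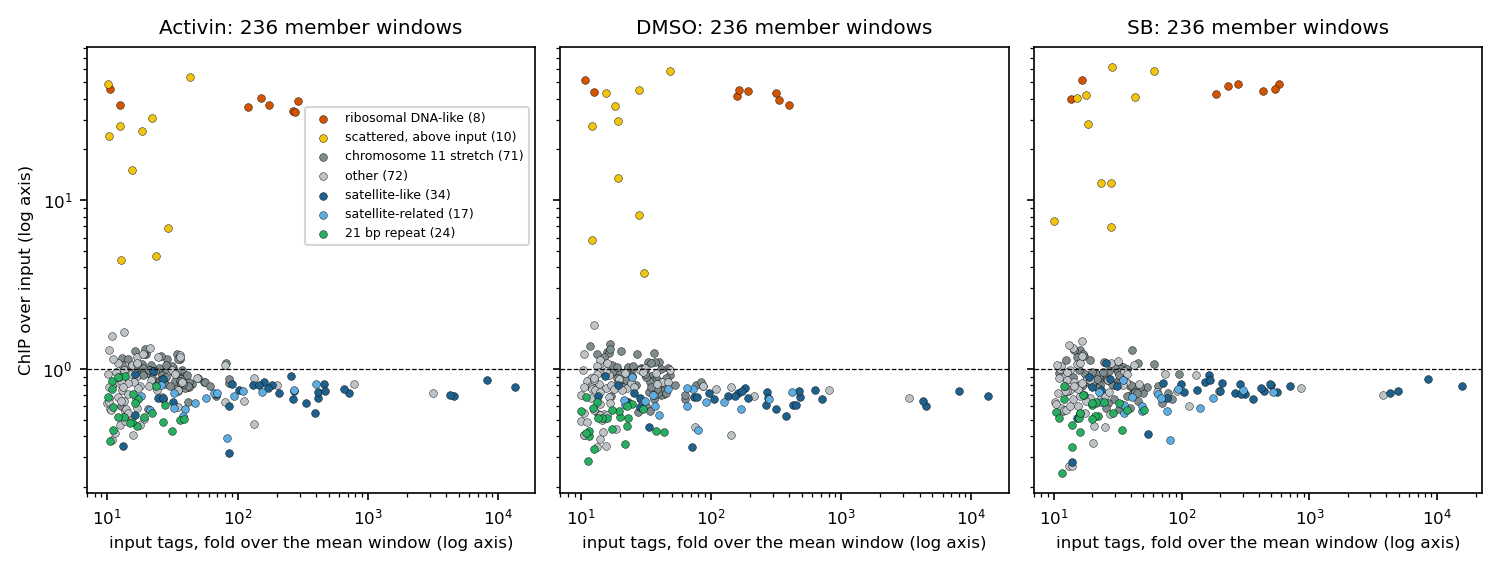
ChIP over input (log axis) of each of the 236 windows against its input tags in multiples of the mean of a non-empty window (log axis), in 1 panel per treatment and coloured by sequence class. The ribosomal DNA-like and scattered windows sit far above the line of equal shares in every panel, and the deepest windows, most of them satellite-like, sit below it.

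The ribosomal DNA-like windows had the most ChIP tags of all. They held 284018, 382443 and 486507 ChIP tags in Activin, DMSO and SB, which was 2.21%, 3.03% and 5.09% of each library, against 0.0608%, 0.0741% and 0.109% of the inputs. ChIP over input was 36.3 (interval 35.5 to 37.2) for Activin, 41.0 (40.1 to 41.8) for DMSO and 46.5 (45.7 to 47.4) for SB. The intervals did not overlap, and SB, in which the receptors are blocked, had the highest value. In 6 of the 8 windows the order from low to high was Activin, DMSO, SB. When tags with the same position and strand were counted once, the values became 2.22, 2.27 and 2.08, with SB the lowest. When the libraries were scaled by windows of the same GC content outside the set, an alternative chosen after seeing the data, they were 33.9, 40.2 and 36.2, with DMSO the highest.

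Of these windows, 7 were consecutive, from chr17:39979001-39980000 to chr17:39985001-39986000, of which the last overlaps an exon of the gene AY036118 and the other 6 are intergenic beside it. A RefSeq table of a later assembly (GRCm38), used for names only, places Rn18s-rs5, a gene related to the small-subunit ribosomal RNA, next to AY036118. The window chr17:39980001-39981000 held 68376, 80258 and 89248 ChIP tags in Activin, DMSO and SB over 1542, 1843 and 2157 input tags. Its ChIP over input was 39.0, 43.0 and 44.6. The window after it, chr17:39981001-39982000, held 53675, 85896 and 129118 ChIP tags over 1399, 2298 and 2852 input tags, at 33.7, 36.9 and 48.8. SB was highest in both, and the spread between treatments was wider in the second. In chr17:39982001-39983000, which contains the printed 300 bp, the values were 55326, 77543 and 112585 ChIP tags over 1454, 1941 and 2657 input tags, at 33.4, 39.5 and 45.7. In chr17:39983001-39984000 they were 25924, 38844 and 50607 over 635, 923 and 1154, at 35.9, 41.6 and 47.3.

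In chr17:39984001-39985000 the order was different: 36403, 43143 and 36327 ChIP tags lay over 797, 953 and 924 input tags, at 40.1, 44.7 and 42.4. The window chr17:39985001-39986000 held 38638, 50194 and 62108 ChIP tags over 923, 1123 and 1375 input tags, at 36.8, 44.1 and 48.7. The shallow edge window chr17:39979001-39980000 held 2756, 3261 and 3986 ChIP tags over 66, 74 and 83 input tags, at 36.7, 43.5 and 51.8. The 7 windows therefore had similar ChIP over input in each treatment, between 33.4 and 40.1 in Activin, while their tag numbers varied over more than 10-fold. The eighth window, chr6:3151001-3152000, nearest to Samd9l, matched the stretch over 67% of its length at 97.6% identity. It held 2920, 3304 and 2528 ChIP tags over 56, 63 and 68 input tags, at 45.8, 51.8 and 40.1, with SB the lowest. Its ChIP tags lay in a block of 94 bp.

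Within the stretch of 6165 bp the ChIP profile followed the input profile. Over 62 bins of 100 bp, Pearson's r of ChIP with input of the same treatment was 0.964, 0.949 and 0.982 for Activin, DMSO and SB. These are descriptions with no test, since neighbouring bins share fragments and all bins share base composition and copy number. The ChIP profiles were less alike between Activin and SB, at r of 0.762, than between Activin and DMSO (0.935) or SB and DMSO (0.923). The ChIP tags covered 9050, 9447 and 9556 of the 12330 possible positions and strands in Activin, DMSO and SB, or 73.4%, 76.6% and 77.5%, with 31.1, 40.1 and 50.6 tags at each position used. The input tags covered 34.4%, 41.6% and 47.1%, with 1.61, 1.78 and 1.93 tags at each. In ChIP 73.4% to 77.5% of the positions and strands were thus in use, which bounds how far a count of distinct positions can rise. What part this bound or amplified copies have in the values with tags counted once was not tested. The deposited peak lists give their highest tag numbers in this stretch, 9051 in the Activin list, 9447 in DMSO and 9556 in SB, which differ from the numbers of distinct positions here by at most 1.

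**Figure D2:**
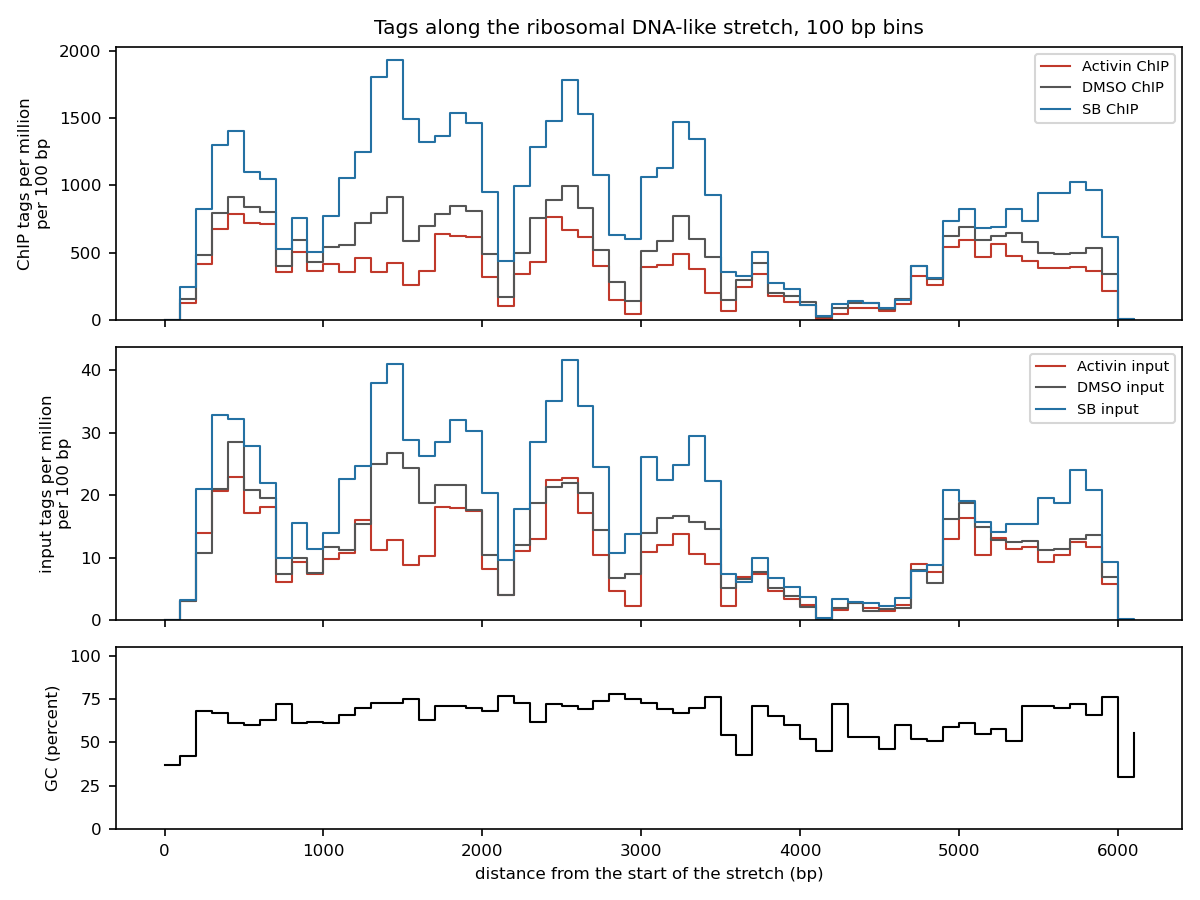
Tags per 1000000 tags of each library in bins of 100 bp along the ribosomal DNA-like stretch of chromosome 17, for ChIP and for input in the 3 treatments, with the percent GC of each bin; the horizontal axis is the distance in bp from the start of the stretch. ChIP and input rise and fall at the same places, and SB exceeds Activin most where GC is high.

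The difference between SB and Activin along the stretch went with GC content in ChIP and in input. In the 25 bins with at least 70% GC the SB library had 2.83 times the ChIP tags of the Activin library per total tags, and 2.05 times the input tags. In the 23 bins of 55% to 70% GC these ratios were 1.99 and 1.65, and in the 10 bins under 55% GC they were 1.58 and 1.24. Across the 58 bins with at least 10 tags in every library, r between GC and the log2 ratio of SB over Activin was 0.61 in ChIP and 0.583 in input, and the log2 ratios of ChIP and input correlated at 0.884. In windows outside the set ChIP over input, a different quantity, also varied with GC: at 70% to 72.5% GC it was 1.10 for Activin, 1.02 for DMSO and 1.40 for SB, and at 35% to 37.5% GC it was 1.03, 1.06 and 0.976. The part of GC content in the treatment differences was not tested beyond the scaling at equal GC given above.

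The 10 scattered windows lay at single sites on 8 chromosomes, from 3.72 to 61.3 times input. Together they held 31091, 41203 and 45574 ChIP tags in Activin, DMSO and SB over 1047, 1348 and 1360 input tags, and ChIP over input was 26.1 (24.5 to 27.8), 30.2 (28.6 to 31.9) and 36.1 (34.2 to 38.1). Since they were set apart by that ratio, their height is not a finding. Their ChIP tags lay in narrow blocks, with a median width of 188 bp between the outer 1% of tags on either side, against 968 bp in the ribosomal DNA-like windows. All 10 windows had a listed peak in each of the 3 deposited lists. Those lists were made from the same libraries as the ratio that set these windows apart, so this overlap is not an independent result.

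The highest was chr11:108873001-108874000, an intergenic window nearest to Gm11668, with 14053, 16576 and 16403 ChIP tags over 230, 281 and 304 input tags, at 53.7, 58.3 and 58.2. Its ChIP over input differed little between treatments.

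The window chr16:57391001-57392000, in an intron of Filip1l and of 2610528E23Rik, differed most between treatments, with 2059, 3939 and 8083 ChIP tags over 66, 107 and 142 input tags, at 27.4, 36.4 and 61.3. Its printed 100 bp had 71.0% GC. The window chr5:147072001-147073000, which overlaps an exon of Cdk8, a kinase of the Mediator complex, and AC113316.1, held 4027, 7429 and 8152 ChIP tags over 116, 163 and 216 input tags, at 30.5, 45.0 and 40.7. Activin was lowest in both. The window chr16:91534001-91535000, nearest to Gm7860, held 1497, 1987 and 2858 ChIP tags over 55, 71 and 76 input tags, at 23.9, 27.6 and 40.5. The window chr16:35981001-35982000, on an exon of Kpna1, an importin alpha, and of Gm15564, held 2851, 3363 and 2422 ChIP tags over 98, 112 and 92 input tags, at 25.6, 29.7 and 28.4. SB had the highest value in the former, where its interval overlapped that of DMSO, and lay between the other two in the latter.

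Lower values were found in other windows. In chr7:89920001-89921000, on an exon of Eftud1, 1416, 1546 and 1621 ChIP tags lay over 82, 113 and 138 input tags, at 15.2, 13.5 and 12.7. Here Activin was highest. The window chr1:197067001-197068000, nearest to AC109145.1, held 1198, 1349 and 1365 ChIP tags over 154, 163 and 116 input tags, at 6.84, 8.17 and 12.7. The window chr19:61275001-61276000, nearest to Gm6020, shares 684 bp with it at 90.643% identity and held 662, 666 and 883 ChIP tags over 125, 177 and 138 input tags, at 4.65, 3.72 and 6.90. SB was highest in both of these related windows.

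**Figure D3:**
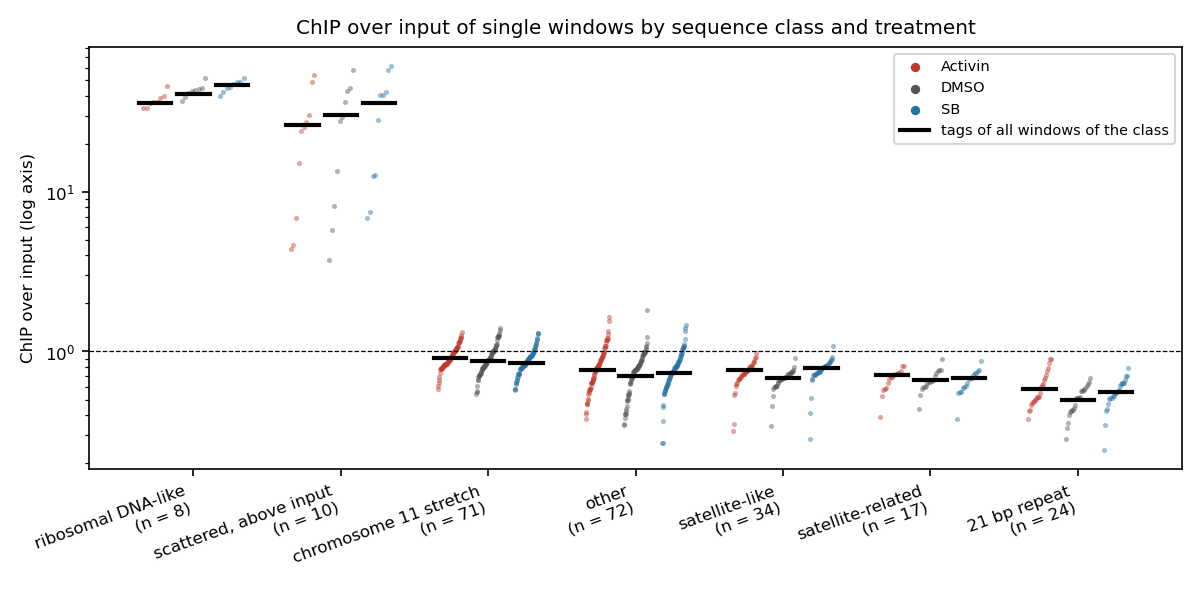
ChIP over input (log axis) of single windows by sequence class, with a column for each treatment in each class and a black bar for the pooled value of the class. The ribosomal DNA-like and scattered classes lie above 1, the satellite-related and 21 bp repeat classes lie below it, as do the satellite-like windows except 1 of them in SB, and the chromosome 11 stretch lies around it.

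The satellite-like windows were the deepest in input and lay below it in ChIP. They held 194359, 211707 and 195410 input tags in Activin, DMSO and SB, 1.72%, 1.70% and 1.90% of each library, and 169917, 146161 and 143711 ChIP tags, 1.32%, 1.16% and 1.5%. ChIP over input was 0.768 (0.763 to 0.773) for Activin, 0.682 (0.677 to 0.686) for DMSO and 0.793 (0.787 to 0.798) for SB, and 33 of 34 windows lay below input in all 3. DMSO was lowest, in 26 of the 34 windows taken singly as well. These windows share sequence and were counted in the same libraries, so they are not separate cases either. When scaled by the median window the value in SB was 1.003. With tags of the same position and strand counted once the values were 0.915, 1.06 and 1.10, so that DMSO and SB lay above 1. Many tags share each position here, as given for the chromosome 2 stretch. What part this has in the values with tags counted once was not tested.

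Most of these tags came from 1 place. The locus chr2:98502001-98508000, which overlaps the predicted genes Gm10801 and Gm10800, held 522267 input tags over the 3 libraries, a mean of 5420 times that of a non-empty window, more than any other locus. Its ChIP over input was 0.775, 0.686 and 0.796 for the treatments in that order. The window chr2:98507001-98508000 held 62678, 54591 and 56684 ChIP tags over 70853, 77805 and 76856 input tags, at 0.777, 0.693 and 0.795. The chromosome 9 windows, 27 in number and overlapping predicted genes such as Gm16869, Gm10722, Gm10715 and Gm11168, had 0.724, 0.656 and 0.768. They include the loci chr9:3015001-3039000, at 189 times the input mean, and chr9:3000001-3008000, at 156 times. DMSO was lowest on both chromosomes. A period of 234 bp, within 1 bp, was the best match of the sequence to itself in 16 of the 34 windows, and the double of it in 9.

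Within the satellite stretch of 5209 bp, ChIP and input tags were piled on the same few positions. The 148617, 127130 and 126157 ChIP tags used 1842, 1845 and 1796 of 10418 positions and strands, and the 168466, 183077 and 170723 input tags used 1976, 1984 and 1930. This came to 68.9 to 80.7 ChIP tags and 85.3 to 92.3 input tags at each position used. Over 53 bins of 100 bp, r of ChIP with input was 0.988 to 0.992. The highest bin, 4901 to 5000 bp from the start, held 30750, 26381 and 27307 ChIP tags and 30019, 32539 and 32921 input tags. In 15 bins no 35 bp sequence occurs only once in mm9, and those bins held 0 tags in every library. In all, 22 bins held 3 tags or fewer over the libraries together, so some bins with single-copy sequence were also empty or nearly so. In the satellite-like windows the median share of such single-copy 35 bp sequences was 11.9%, against 85.2% in a sample of 2395 windows of the genome, while 90.5% to 91.9% of their tags lay on such sequences.

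**Figure D4:**
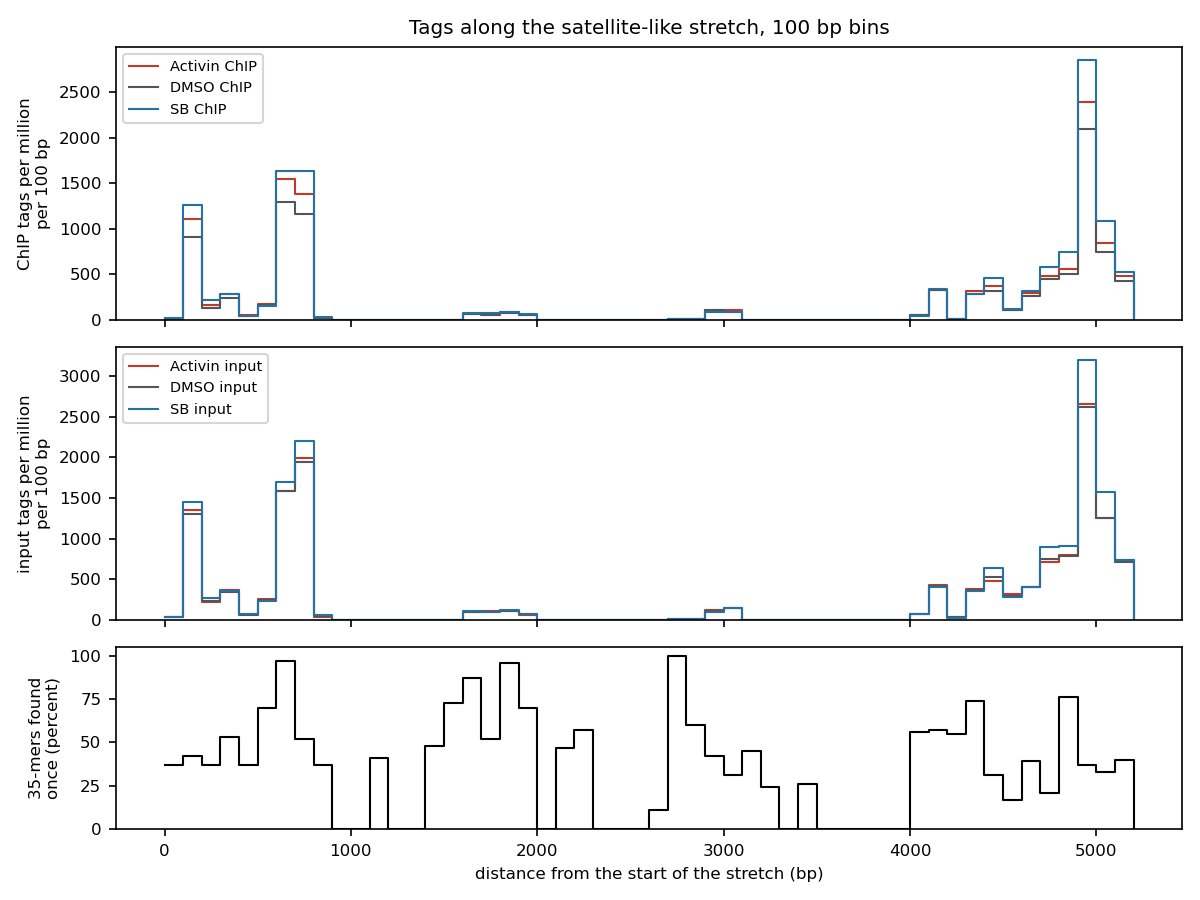
Tags per 1000000 tags of each library in bins of 100 bp along the satellite-like stretch of chromosome 2, for ChIP and for input, with the percent of 35 bp sequences in each bin that occur once in mm9; the horizontal axis is the distance in bp from the start of the stretch. The peaks of ChIP and input coincide, and bins with no single-copy sequence hold 0 tags.

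The satellite-related windows and the 21 bp repeat lay below input in every window, 17 of 17 and 24 of 24. ChIP over input was 0.717, 0.666 and 0.680 in the satellite-related windows and 0.578 (0.541 to 0.617), 0.497 (0.465 to 0.531) and 0.557 (0.521 to 0.597) in the 21 bp repeat, the lowest of the classes. Among the satellite-related loci, chr12:3110001-3111000 was at 444 times the input mean with 0.816, 0.733 and 0.731. The window chr4:70039001-70040000, in an intron of Cdk5rap2, which codes for a centrosome protein, held 1234, 1092 and 1055 ChIP tags over 1441, 1617 and 1510 input tags, at 0.752, 0.667 and 0.753. The first assembled bases of chromosome 11, chr11:3000001-3005000, had 0.560, 0.611 and 0.549, and the window chr11:3002001-3003000 in it had 0.387, 0.434 and 0.379. Of the loci named for their input tags, this was the lowest in ChIP.

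The chromosome 11 stretch, chr11:3027001-3100000, was close to input. Of its 71 windows, 63 overlap Sfi1, a gene for a centrin-binding protein of the spindle pole, and others overlap Drg1 and Pisd-ps1. They lay in exons in 38 cases and in introns in 33. The stretch held 12677, 11927 and 9239 ChIP tags over 12328, 13423 and 11688 input tags, at 0.904, 0.878 and 0.852. By window 4 lay above, 33 below and 34 on both sides of input, and the highest window reached 1.32, 1.40 and 1.30 in Activin, DMSO and SB. It lay at 32.8 times the input mean and had no listed peak, 0 in each list.

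The other 72 windows were mostly below input, 52 of them in all 3 treatments, at 0.763, 0.704 and 0.734 together. Of these, 16 contain a part that matches the satellite stretch. The deepest locus, chr9:35112001-35114000, nearest to Gm5614, lay at 2110 times the input mean, and its window chr9:35113001-35114000 held 13796, 13194 and 12055 ChIP tags over 16728, 19322 and 18605 input tags, at 0.725, 0.674 and 0.698. Its first 100 bp held 54582 of the 54655 input tags of the 3 libraries, or 99.9%. This sequence is shown because 97 of its 100 bases equal a part of the satellite stretch, although under 50% of the window matches it and the window is therefore not counted as satellite-like. The window held 55.8% of the input tags of the 72 windows.
other, chr9:35113001-35113100: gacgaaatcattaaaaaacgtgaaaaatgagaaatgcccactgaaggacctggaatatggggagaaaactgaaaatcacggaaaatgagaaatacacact
The window chr9:24346001-24347000, near Dpy19l2, was at 0.807, 0.693 and 0.743. Among the lowest windows of the whole set were chr17:3353001-3354000 in Tiam2, at 0.418, 0.346 and 0.266 from 17 to 29 ChIP tags, and the satellite-like chr9:3003001-3004000 in an intron of Gm16869, at 0.316, 0.343 and 0.410 from 103 to 164 ChIP tags. Of the others among the 10 lowest, chr17:3012001-3013000, chr17:3008001-3009000 and chr16:3238001-3239000 were 21 bp repeat windows, with 13 to 43 ChIP tags in a library. The window chr8:91022001-91023000, with 28, 55 and 18 ChIP tags over 70, 79 and 69 input tags, is in the satellite-like class because 78% of it matched the stretch, but its best repeat period was 2 bp, its GC content 43.3%, and 97.2% of its 35 bp sequences occur once in mm9, against at most 27.7% in the satellite-like windows of chromosome 9. The windows chr3:122011001-122012000, chr8:124214001-124215000 and chr12:56639001-56640000 belonged to no repeat class, and chr11:3002001-3003000 is given above. Such low values rest on few tags. Of the 3 other windows above input in all treatments, chr10:80641001-80642000, on Eef2, the gene of translation elongation factor 2, and the small nucleolar RNA gene Snord37, was the highest, with 133, 134 and 111 ChIP tags over 71, 73 and 82 input tags, at 1.65, 1.81 and 1.46.

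At the edge of the selection the values were like those of the other shallow windows. The window just inside, chr5:100780001-100781000, lay at 10.0 times the mean in its lowest input, with ChIP over input of 0.630, 0.405 and 0.586. The window just outside, chr4:3013001-3014000, lay at 9.88 times, with 0.601, 0.562 and 0.616. The next one outside, chr8:20020001-20021000, lay at 9.84 times, with 1.09, 1.26 and 1.40.

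The classes differed in base composition, which the choice of the windows by input did not use. The ribosomal DNA-like, satellite-like, satellite-related and 21 bp repeat classes were formed by their sequence. Differences in composition between classes are therefore a description and not a separate result. The bases of the ribosomal DNA-like windows were 59.6% GC with 81.9 CpG per kb, and those of the scattered windows 50.6% with 31.2 per kb. The satellite-like windows had 35.4% GC and 18.9 CpG per kb, and the 21 bp repeat 49.8% and 4.35 per kb, against 41.9% and 8.51 in all windows of chromosomes 1 to 19. Of 235 windows with a GC value, 5 had 60% GC or more, and all 5 lay above input in all 3 treatments. Of all windows of the genome 0.48% reach 60% GC. Outside the set, windows of 60% to 62.5% GC had a pooled ChIP over input of 1.06, 1.03 and 1.19 in Activin, DMSO and SB, also above 1. Most of the 5 windows of the set lay in the ribosomal DNA-like stretch of chromosome 17, whose 7 consecutive windows had a median of 61.8% GC. They are therefore not separate cases. CpG was thus denser than in the genome both in classes above input and in the satellite-like class below it.

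The Smad element CAGA, searched as CAGA on both strands and counted with CAGAC inside it, was less dense in the ribosomal DNA-like windows than in the genome, 6.88 against 13.2 per kb. It was at 12.2 per kb in the scattered windows, 2.24 in the satellite-like, 6.83 in the 21 bp repeat and 16.5 in the chromosome 11 stretch. CAGAC was at 2.38 per kb in the ribosomal DNA-like windows, all 8 of which hold it, and at 2.24 per kb in the genome, where 86.6% of windows hold it. It was at 0.265 per kb in the satellite-like windows, of which 4 of 34 hold it. A match is a description of the letters in these windows and says nothing of binding.

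ChIP libraries were compared with each other window by window by a two-sided exact binomial test, given the total tags of both libraries, with Benjamini-Hochberg adjustment over all windows of the genome with at least 10 tags in both libraries together, at an adjusted p of 0.05. Between Activin and DMSO 20 of the 236 windows were called, 6 higher and 14 lower in Activin, which is 8.47%. Of the 1029933 windows tested 0.0183% were called higher and 0.0229% lower. Between SB and DMSO 36 were called, or 15.3%, all higher in SB and 0 lower, against 0.0787% called higher and 0.0251% called lower among 809702 windows. Between Activin and SB 31 were called, or 13.1%, 2 higher and 29 lower in Activin, against 0.037% called higher and 0.128% called lower among 840777 windows. These windows are far deeper than the rest of the genome, so that much smaller differences pass the test in them, and the shares cannot be read as larger differences. Windows of a class that share sequence or lie side by side are not separate cases, in the counts below as well. The median ChIP ratio of the 236 windows was 1.03 for Activin over DMSO, 1.12 for SB over DMSO and 0.949 for Activin over SB, against 0.980, 0.941 and 1.04 over all windows tested.

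In the ribosomal DNA-like class ChIP tags were lower in Activin than in DMSO in 8 of 8 windows, higher in SB than in DMSO in 7 of 8, and lower in Activin than in SB in 8 of 8. The pooled ChIP ratios were 0.727 (0.724 to 0.731), 1.68 (1.67 to 1.68) and 0.434 (0.432 to 0.436). The inputs moved the same way, at 0.821, 1.48 and 0.556, and 3, 5 and 6 of the 8 windows were called in the same test of inputs. The largest difference among the 8 was in chr17:39981001-39982000, at 0.612 (0.605 to 0.619) for Activin over DMSO, 1.98 (1.96 to 2.00) for SB over DMSO and 0.309 (0.306 to 0.312) for Activin over SB. A test of whether the odds of ChIP to input differed called 0 of the 8 windows between Activin and DMSO, 1 between SB and DMSO and 4 between Activin and SB. For the tests of inputs and of odds, here and below, no share over all windows is given. Their counts are therefore a description. The ratio of ChIP over input was then 0.886, 1.14 and 0.781 times that of the other treatment.

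In the scattered windows 6 of 10 were lower in Activin than in DMSO, 8 of 10 were higher in SB than in DMSO and 10 of 10 were lower in Activin than in SB, at pooled ChIP ratios of 0.739, 1.46 and 0.507. The inputs were at 0.855, 1.22 and 0.702, with 0, 0 and 2 windows called. For chr16:57391001-57392000 the ChIP ratio was 0.512 (0.485 to 0.540) for Activin over DMSO, 2.70 (2.60 to 2.81) for SB over DMSO and 0.189 (0.180 to 0.199) for Activin over SB, and the input ratios were 0.679, 1.60 and 0.424.

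In the satellite-like windows 5 of 34 were higher in Activin than in DMSO and 0 lower, and 15 of 34 were higher in SB than in DMSO and 0 lower. Between Activin and SB 1 was higher and 6 were lower in Activin. Pooled ChIP ratios were 1.14, 1.30 and 0.879, and input ratios 1.01, 1.12 and 0.907. The strongest of these by p was chr2:98502001-98503000, with 42720, 35085 and 34172 ChIP tags in Activin, DMSO and SB over 43490, 46790 and 41950 input tags, at 1.19 (1.18 to 1.21) for Activin over DMSO. In chr2:98507001-98508000 SB over DMSO was 1.37. The windows chr2:98503001-98504000 and chr2:98506001-98507000, on exons of Gm10801 and Gm10800, were at 1.18 and 1.10 for Activin over DMSO, and chr9:3023001-3024000, on exons of Gm10718 and Gm16869, was at 1.20 (exact binomial test, adjusted p = 0.027). The single window higher in Activin than in SB was chr2:98505001-98506000, with 2999, 2758 and 1869 ChIP tags, at 1.19 (1.12 to 1.26), where the inputs were at 1.14. The odds of ChIP to input differed between Activin and DMSO in 4 windows of the whole set, all of them satellite-like windows of chromosome 2 and higher in Activin. Between SB and DMSO the odds differed in 5 satellite-like windows, all higher in SB, and between Activin and SB in 0 satellite-like windows.

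The other classes had few calls. The 21 bp repeat had 0 of 24 windows called in each comparison by the exact binomial test, with 2, 8 and 4 windows at an unadjusted p under 0.05 for Activin over DMSO, SB over DMSO and Activin over SB. The unadjusted counts have no share over all windows beside them and are not calls. The chromosome 11 stretch had 0, 1 and 3 calls, the last of them 1 higher and 2 lower in Activin, the satellite-related windows 0, 2 and 1, and the remaining windows 1, 3 and 2. In the chromosome 11 stretch chr11:3046001-3047000, on an exon of Sfi1, held 529, 403 and 255 ChIP tags in Activin, DMSO and SB over 431, 504 and 415 input tags, and was higher in Activin than in SB at 1.54 (1.33 to 1.80). The lower ones were chr11:3030001-3031000, on an exon of Pisd-ps1, with 71, 117 and 101 ChIP tags and Activin over SB at 0.523 (0.380 to 0.715), and chr11:3035001-3036000, on an exon of Sfi1, with 281, 263 and 300 ChIP tags, at 0.696 (0.590 to 0.822). The next windows with Activin above SB did not pass the exact binomial test: chr11:3073001-3074000 and chr11:3044001-3045000 in Sfi1 were at 1.47 and 1.22, with adjusted p of 0.248 and 0.35, and chr1:87488001-87489000, on an exon of Sp110, was at 1.69, with 0.252. For SB over DMSO the windows of smallest p among those below 1 did not pass it either: chr2:98505001-98506000 was at 0.893, chr8:91022001-91023000 at 0.431, chr11:3084001-3085000 at 0.71, chr16:3238001-3239000 at 0.398 and chr9:3007001-3008000 at 0.579, with adjusted p from 0.0777 to 0.246.

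The deposited peak lists, of 5094, 7423 and 4759 peaks in Activin, DMSO and SB, reached 20, 55 and 21 of the 236 windows within 500 bp, and 0.392%, 0.544% and 0.367% of all windows of chromosomes 1 to 19. Of the 25 windows above input 13, 13 and 12 had a listed peak, among them 3, 2 and 2 ribosomal DNA-like windows. Of the 159 windows below input 6, 36 and 7 had one, and among the satellite-like windows 4, 20 and 3 of 34. The lists give a position per peak, so a window inside a long peak is counted only near that position. The tags listed in the ribosomal DNA-like stretch, 9051, 9447 and 9556, nearly equal the distinct positions of the whole stretch, 9050, 9447 and 9556. Its uncounted windows therefore cannot be read as lying outside a peak.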

How the data were processed

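Chromatin of E14 TG2A cells was immunoprecipitated for pSmad2, and a ChIP and an input library were sequenced for each of the 3 treatments, after 18 cycles of amplification per the labels. The deposited files hold aligned tags of 35 bp, with position and strand, and the value used here is a count of deposited tags per window. The deposited lists from MACS give a position and a tag count per peak, as made by the authors, and were used only to look up peaks within 500 bp of a window. The submitters' processing notes name the build mm9, and no aligner is named in the sources used here. The study's supplementary text calls the sequenced tags unique, without saying how tags with several matches were treated. Tags outside chromosomes 1 to 19 were not used here.

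The windows and the lists of classes were chosen with earlier results of these data known, and the sequence classes were formed after the values had been seen. Tags were counted by 5′ end in windows of 1000 bp and scaled by the tags of each library on chromosomes 1 to 19 (9565283 to 12867785), so that a window with 10 tags has a wide counting error. Sequences and genes were read from NCBIM37 and its GENCODE annotation, the same assembly as mm9. Windows were assigned to the ribosomal DNA-like and satellite-like classes by lying in their stretch or by blastn. The limits were an expectation of at most 1e-10 and at least 80% identity over at least 50% of the window. Satellite-related windows matched one another at the same limits. The 21 bp repeat was assigned by the shift at which a window best matched itself. The chromosome 11 stretch was the longest run of joined windows, and the scattered windows were set apart by ChIP over input. Of sequence features, 35 bp sequences were counted over the whole assembly. Named are the stretches that define the ribosomal DNA-like and satellite-like classes, the 10 loci with most input tags, the 10 windows highest and the 10 lowest in ChIP over input, and for every pair of treatments the 5 windows of smallest p on either side. Most of the scattered windows are also given, chosen after their values were seen, and results at some windows are not reported here. Exact binomial tests between libraries, Clopper-Pearson intervals and Benjamini-Hochberg adjustment used Python 3.11.15 with numpy 2.4.6, scipy 1.17.1, pandas 2.3.3 and numba 0.67.0. The binomial test with its adjustment was also run on simulated counts, and the intervals and the test of odds were not. Simulated tags were independent of each other, so that run does not cover tags piled at the same position. Alternatives covered tags of the same position and strand, other scalings, pooled inputs, the threshold of the selection, shifted windows and the tag position, and those added after seeing the data are named as such.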

Additional observations from a re-analysis of the deposited data

Results flagged for a closer look

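The ratio of ChIP over input in chr19:61275001-61276000, near Gm6020, was 1.855 times as high in SB as in DMSO, and the odds of ChIP to input differed between these libraries at an adjusted p of 0.0477 (exact test, Benjamini-Hochberg over all windows tested). It held 883 ChIP and 138 input tags in SB, and 666 and 177 in DMSO.

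The ratio of ChIP over input in chr16:57391001-57392000, in an intron of Filip1l, was 0.4469 times as high in Activin as in SB, and the odds differed at an adjusted p of 0.0306 (exact test, Benjamini-Hochberg over all windows tested). It held 2059 ChIP and 66 input tags in Activin, and 8083 and 142 in SB. In both cases the libraries of 2 treatments were compared and not the treatments, with 1 library for each.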

How the results depend on the processing

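With 1 library per kind and treatment no library could be left out. No paired analysis was possible because the labels give no replicate numbers and each group has 1 library. Of the alternative values, 41 stayed within the limits set for a value that did not move, 58 moved and 6 reversed. The causes were not tested, except where an alternative leaves out windows or tags by its construction.

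The number of windows was 1048 at 5 times the mean and 135 at 20 times. ChIP over input summed over all windows was 1.83, 2.14 and 2.92 in Activin, DMSO and SB. It became 1.11, 1.17 and 1.20 with tags of 1 position and strand counted once, 1.86, 2.20 and 3.08 scaled by the tags outside the set, 2.25, 2.65 and 3.70 scaled by the median window, 1.76, 2.07 and 3.17 over the 3 inputs pooled, 1.81, 2.13 and 2.90 with shifted windows, and 1.80, 2.11 and 2.88 at 20 times the mean. Without the ribosomal DNA-like windows (added after seeing the data) it reversed to 0.877, 0.837 and 0.972.

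In the ribosomal DNA-like windows, ChIP over input of 36.3, 41.0 and 46.5 became 2.22, 2.27 and 2.08 with tags of 1 position and strand counted once, 44.8, 50.7 and 58.9 by the median window, and 27.5, 37.8 and 63.3 over pooled inputs. Scaled by tags outside the set, DMSO was 42.1 and SB 49.0, and at equal GC (added after seeing the data) Activin was 33.9 and SB 36.2. In the satellite-like windows, 0.768, 0.682 and 0.793 became 0.915, 1.06 and 1.10 with tags counted once (DMSO and SB reversed, where most tags share a position), and 0.947, 0.844 and 1.003 by the median window, with SB reversed. They became 0.783, 0.701 and 0.835 scaled by tags outside the set, 0.748, 0.657 and 0.851 over pooled inputs, and 0.744, 0.641 and 0.810 at equal GC.

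The 25 windows above input became 40 with tags counted once, 71 by the median window and 11 at 20 times the mean, and the 159 below became 102, 85 and 98. The 20 windows that differed between Activin and DMSO became 1 with tags counted once, 4 in the test of odds and 12 without the ribosomal DNA-like windows, the 36 between SB and DMSO became 6 and 7 in the first and second of these, and the 31 between Activin and SB became 13 and 5. The numbers of ribosomal DNA-like and satellite-like windows stayed within 1.5 times under other match limits. A window with 10 tags cannot show small differences, whereas in the deepest windows differences of a few percent pass the test.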
